A study of Caenorhabditis elegans with 7 samples.

Results

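The TWK genes described here encode potassium channels of the tandem-pore (K2P) family, and 5 of them were named among the probe sets that the submitters listed as higher in DD motor neurons of Caenorhabditis elegans: twk-7, twk-12, twk-23, twk-30 and twk-43. They were found as every entry of that deposited list whose gene name begins with twk-, which gave 5 probe sets, 1 for each gene, among 236 listed probe sets and 22548 tested on the arrays. The members were thus selected on the difference between DD neurons and all cells on these same arrays, so the direction of each difference was fixed by the choice of members, and the differences below are described without a test. The RefSeq gene table (assembly WBcel235) holds 47 genes of the family, of which 44 have a twk- symbol and the others are egl-23, sup-9 and unc-58. The other 42 could not be assigned to probe sets with the tables used here and were not analysed here, so nothing is known from this work on whether they were higher, lower or alike.

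Tandem-pore channels let potassium leave the cell at rest. Each subunit carries a pair of pore loops, subunits assemble as dimers, and the leak current that results holds the resting membrane potential negative and sets how readily a neuron or muscle fires. The family is far larger in this worm than in mammals. Among its well studied genes, twk-18 acts in body wall muscle, sup-9 and unc-58 were found through mutants with abnormal movement, and egl-23 through egg-laying defects. The DD class of motor neurons releases GABA onto body muscle and so relaxes it during locomotion. In the early larva these cells contact ventral muscle, and they later rewire.

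The DD group comprised 4 arrays of neurons sorted by fluorescence from strain CZ8332, which carries the integrated transgene juIs223 on chromosome IV, with mCherry under the ttr-39 promoter and GFP under the ttx-3 promoter. The group of all cells comprised 3 arrays of the wild-type strain N2, with no reporter. Both groups came from L1 larvae that hatched in buffer without food and were arrested in growth, and their RNA was amplified before labelling. Strain, reporter, sort and cell type changed together, and the effects of these cannot be told apart. The ttx-3 promoter is active in AIY interneurons, so a second fluorescent protein marked cells other than DD. One characteristic of the DD samples gives GFP as the label, whereas the design text gives mCherry as the marker that was sorted. Separate cultures are not stated for the samples within a group, and the spread between arrays may therefore be technical. In bulk RNA, a larger share of cells with a transcript and more transcript per cell cannot be told apart.

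The sorted samples were higher in marker transcripts of GABAergic neurons, some general and some of the D type, though these genes too were named only by the list of probe sets higher in DD neurons. The GABA synthesis gene unc-25 had a mean log2 level of 11.29 ± 0.30 in DD neurons, against 8.23 ± 0.29 in all cells (SD, n = 4 and 3, here and below). For unc-47, which encodes the transporter that loads GABA into vesicles, the means were 7.20 ± 0.20 in DD neurons and 4.67 ± 0.41 in all cells, and ttr-39, the source of the reporter's promoter, averaged 11.42 ± 0.27 in DD neurons and 7.94 ± 0.47 in all cells. For the fate-determining homeobox gene unc-30 the means were 10.05 ± 0.45 in DD neurons and 6.83 ± 0.47 in all cells. The list holds 1.05% of all tested probe sets, a share to set beside the counts of named genes here. Of 13 GABA and D-type genes looked for, 8 were named, and snf-11, flp-13, flp-11, unc-55 and irx-1 were not. None of 7 AIY genes, 9 cholinergic motor neuron genes or 6 pharyngeal genes was named, which says only that they are not on the list of higher probe sets. At that share, gene lists this short would often have none named. Other tissues had 1 named gene each, and these too were higher in DD neurons by the group means. Of 13 body muscle genes this was the titin gene ttn-1, with log2 differences of 1.18, 1.94 and 2.11 by its 3 probe sets. Of 8 intestinal genes it was the acyl-CoA dehydrogenase gene acdh-1, at 6.53 ± 0.98 in DD neurons and 4.67 ± 0.70 in all cells, a difference of 1.86 with groups that overlapped. Of 6 epidermal genes it was ptr-24 (1.03), and of 5 germ line genes the P granule gene pgl-1 (1.07, with groups that overlapped). Several of these differences are of the size of the TWK differences, and their part in them was not tested.

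All 4 DD arrays lay above all 3 arrays of all cells for each TWK gene, and the mean differences were 2.39-fold to 4.72-fold. The log2 differences had a median of 2.05 over the 5 genes, against 0.06 over all 22548 tested probe sets and 1.24 over the 236 listed ones. Such a separation, with every DD array above every array of all cells, was found in 6.98% of all tested probe sets, and 1.55% were at least 2-fold higher in DD neurons by the group means. Both together held for 1.17%. These shares depend on the scaling of the arrays. The separated share was 18.3% with each array centred on its median and 1.48% with each centred on the control probe sets, and the share at 2-fold was 0.639% with the controls. Apart from scaling, the separated share can only rise when an array is left out. It was 8.9%, 9.87%, 9.7% and 12.2% without DD replicates 1, 2, 3 and 4. Without replicates 1, 2 and 3 of all cells it was 14.4%, 10.5% and 11.1%. Since the list was drawn from this contrast, the 5 of 5 separated and the 5 of 5 above 2-fold describe the choice of members. On the list itself 222 of 236 probe sets were separated.

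**Figure D1:**
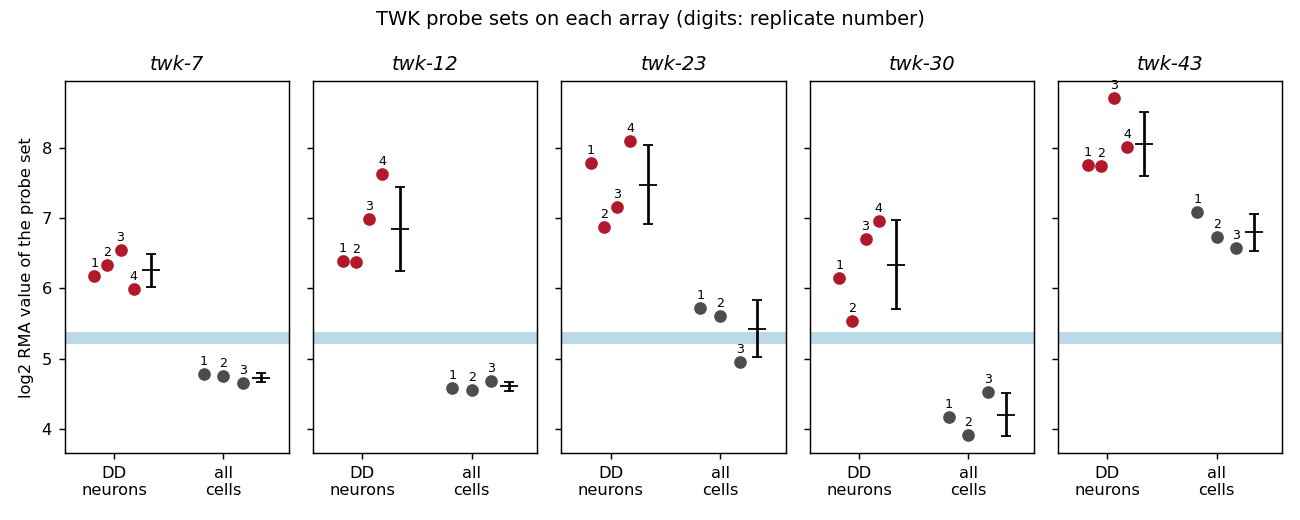
Log2 RMA value (vertical axis) of the probe set of each TWK gene on each array, with DD neurons on the left of each panel (4 arrays, red) and all cells on the right (3 arrays, grey). Digits give the replicate number, the bars beside the points give mean and SD, and the blue band spans the medians of the 7 arrays (5.21 to 5.38); all DD points lie above the band, and the points of all cells lie below it for twk-7, twk-12 and twk-30.

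The plot of values by array shows a gap between the groups for each gene, with different spreads on each side. Values are log2 RMA levels of a probe set (RMA is the background correction, normalization and summary of probes that the submitters used). Levels of different probe sets depend on their probes, so genes are compared by their differences between groups and not by their levels.

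The gene with the largest difference was twk-12 (probe set 193248_at, F29F11.4), which encodes a TWK subunit. It read 6.39, 6.38, 6.99 and 7.63 in DD replicates 1 to 4, against 4.59, 4.56 and 4.68 in the replicates of all cells. Among the DD arrays, replicates 1 and 2 were almost equal and replicate 4 was the highest, while the arrays of all cells lay within 0.12 of each other. The means were 6.85 ± 0.59 in DD neurons and 4.61 ± 0.06 in all cells, giving a log2 difference of 2.24 ± 0.31 (SE) or 4.72-fold. The gap between the lowest DD array and the highest array of all cells was 1.70, wider than the range of 1.25 within the DD group.

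For twk-30 (190880_at, F36A2.4), another TWK subunit gene, the DD values were 6.15, 5.53, 6.71 and 6.96, against 4.17, 3.91 and 4.52 in all cells. It had the widest range of the 5 genes within the DD group, 1.43, and DD replicate 2 lay lowest. The groups were still separated, by 1.01, which is less than that range. The means of 6.34 ± 0.64 in DD neurons and 4.20 ± 0.31 in all cells differed by 2.14 ± 0.35 (SE) on the log2 scale, or 4.40-fold.

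The values of twk-23 (192642_at, F19D8.1) were 7.78, 6.87, 7.16 and 8.10 in DD neurons, against 5.72, 5.61 and 4.96 in all cells. Here both groups were spread out, with ranges of 1.22 in DD neurons and 0.76 in all cells. The lowest DD array stood 1.15 above the highest array of all cells. The means of 7.48 ± 0.56 and 5.43 ± 0.41 (DD neurons and all cells) gave a log2 difference of 2.05 ± 0.33 (SE), or 4.13-fold. RefSeq gives this gene 3 transcripts, which a single probe set cannot separate.

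For twk-7 (187266_at, F22B7.7), whose loss is known to raise locomotor activity in the worm, the values were 6.17, 6.34, 6.54 and 5.99 in DD neurons, against 4.78, 4.75 and 4.66 in all cells. This was the tightest of the 5 in both groups, with ranges of 0.55 in DD neurons and 0.12 in all cells. The gap between the groups, 1.21, was larger than both ranges together. The means of 6.26 ± 0.23 in DD neurons and 4.73 ± 0.06 in all cells differed by 1.53 ± 0.18 (SE), or 2.89-fold.

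The smallest difference belonged to twk-43 (178219_at, F32H5.7), a TWK subunit gene with 4 RefSeq transcripts. Its values were 7.76, 7.74, 8.71 and 8.01 in DD neurons, against 7.09, 6.73 and 6.58 in all cells. DD replicate 3 stood apart upward from the other DD arrays, and the groups were separated by 0.65, less than the DD range of 0.98. The means of 8.05 ± 0.46 in DD neurons and 6.80 ± 0.26 in all cells differed by 1.26 ± 0.27 (SE), or 2.39-fold.

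By size of the log2 difference the order was thus twk-12, twk-30, twk-23, twk-7 and twk-43. The differences of twk-12, twk-30 and twk-23 lay within 0.19 of each other, less than the SE of any of the 3, so their order is not resolved. The step between twk-23 and twk-7 was 0.52, against SEs of 0.33 for twk-23 and 0.18 for twk-7. The SE of a single gene is smaller than that of a step between genes, which was not computed. The order of twk-23 and twk-7 is thus not settled. Between twk-7 and twk-43 the step was 0.27. The step between twk-7 and twk-43 is as large as the SE of twk-43, so this order is not resolved either. Among the 236 listed probe sets, ordered by difference, twk-12 was in place 28, twk-30 in 32, twk-23 in 38, twk-7 in 71 and twk-43 in 114.

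**Figure D2:**
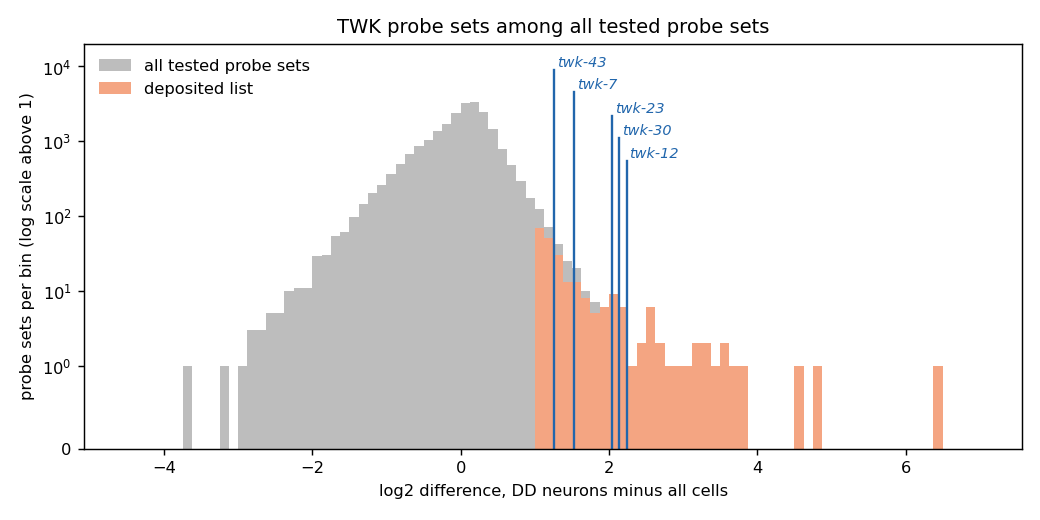
Number of probe sets (vertical axis, log scale above 1) by log2 difference between DD neurons and all cells (horizontal axis), for all 22548 tested probe sets in grey and the 236 listed ones in orange. Blue lines mark the TWK genes, from 1.26 for twk-43 to 2.24 for twk-12; all of them lie in the right tail, where the list was drawn.

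At the edge of the list, the lowest listed difference was 1.00 and the lowest TWK value 1.26. Outside it were 113 probe sets at 2-fold or more, reaching 1.76, of which 72 had groups that overlapped. None of these could be named here, so a TWK gene just outside the list cannot be given.

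The brightness of the TWK probe sets limits how exact the folds are. All 5 were above the array's median in all 4 DD arrays. In all cells, twk-7, twk-12 and twk-30 were below it on every array, twk-23 was above it on 2 of 3 arrays, and twk-43 was above it on all 3. No background level or detection call accompanies these values, so whether the probe sets below the median measured transcript in all cells was not tested, and the folds of twk-7, twk-12 and twk-30 are not exact. Pairs of single arrays give a sense of the range. The fold between a DD array and an array of all cells ran between 3.24 and 8.39 for twk-12, 2.02 and 8.29 for twk-30, 2.22 and 8.81 for twk-23, 2.32 and 3.69 for twk-7, and 1.57 and 4.40 for twk-43.

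Within the groups the TWK genes varied in different ways. The SD over DD arrays exceeded that over arrays of all cells for 5 of 5 genes, as it did for 62.3% of all tested probe sets. The DD spread of twk-30, twk-12, twk-23 and twk-43 lay at percentiles 89.0, 86.3, 83.7 and 73.5 of the spreads of all tested probe sets, in that order, and that of twk-7 at percentile 32.4. In all cells, twk-7 and twk-12 varied little, at percentiles 9.98 and 10.4, whereas twk-23 was at percentile 75.5.

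The same DD arrays were not high for all genes. DD replicate 4 was the highest for twk-12, twk-23 and twk-30, and DD replicate 3 for twk-7 and twk-43. DD replicate 2 was the lowest for all but twk-7, for which replicate 4 was the lowest. Relative to the DD mean, replicate 4 deviated by 0.78 for twk-12, 0.62 for twk-23, 0.62 for twk-30, -0.04 for twk-43 and -0.27 for twk-7. In all cells, replicate 3 was the lowest for twk-7, twk-23 and twk-43 and the highest for twk-12 and twk-30.

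**Figure D3:**
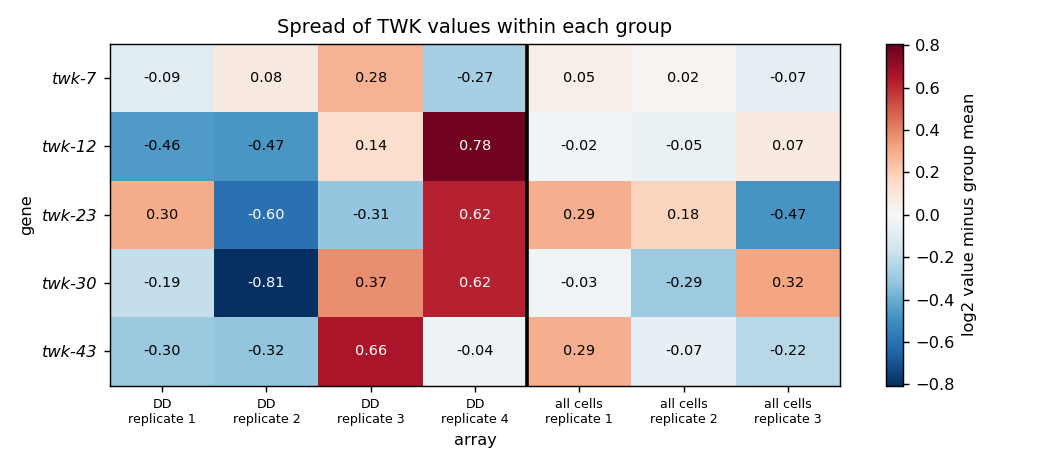
Deviation of each log2 value from the mean of its own group, for the TWK genes (rows) on the 4 arrays of DD neurons (left of the black line) and the 3 arrays of all cells (right of it). Red is above and blue below the group mean; DD replicate 2 is below the mean for every gene except twk-7, and no array is high for all genes.

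Leaving out any 1 of the 7 arrays kept all 5 genes above 2-fold. Groups that are separated with all arrays stay separated when an array is left out, so the separation could not change here. The log2 differences ran between 1.98 and 2.39 for twk-12, 1.93 and 2.41 for twk-30, 1.81 and 2.25 for twk-23, 1.44 and 1.62 for twk-7, and 1.04 and 1.40 for twk-43. The 77 control probe sets of the array moved with the groups. These controls, which include worm genes such as actin, averaged 6.02, 5.78, 5.88 and 5.71 in the DD arrays, against 5.52, 5.39 and 5.56 in the arrays of all cells. With each array centred on the median of these controls the median over all tested probe sets was -0.20, in place of 0.06. The TWK differences with this centring were 1.98 for twk-12, 1.88 for twk-30, 1.79 for twk-23, 1.27 for twk-7 and 1.00 for twk-43, which is just under 2-fold, and all 5 genes were still separated. This centring moves the difference of every probe set by one amount, so their distance from the median of all tested probe sets was unaffected. The medians of the arrays over all tested probe sets lay the other way, at 5.21 to 5.30 in DD neurons and 5.33 to 5.38 in all cells. With each array centred on that median the TWK differences were larger, at 2.32 for twk-12, 2.22 for twk-30, 2.13 for twk-23, 1.61 for twk-7 and 1.34 for twk-43.

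**Figure D4:**
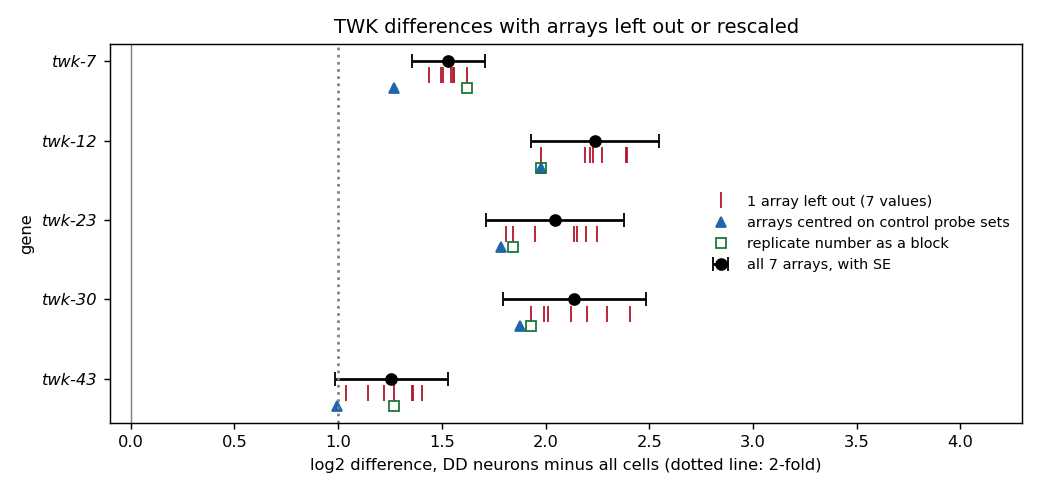
Log2 difference between DD neurons and all cells (horizontal axis) for each TWK gene, over all 7 arrays with its SE (black), with each array left out in turn (red ticks), with arrays centred on control probe sets (blue triangles) and with the replicate number as a block (green squares). The red ticks stay right of the dotted 2-fold line for all 5 genes; the triangle of twk-43 lies at that line, just under it.

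Heat shock genes also differed between the groups in these samples. Of 17 looked for, 10 were named, where the list holds 1.05% of all tested probe sets. The 10 had log2 differences of 1.45 to 4.76, with every DD array above every array of all cells. The summed level of the 10 genes, on the log2 scale, was 13.84 to 14.81 in DD neurons and 10.22 to 12.30 in all cells. Several of the 10 were read by probe sets marked as matching several transcripts. The same transcript may thus count for more than 1 gene and enter the sum more than once. The arrays highest in hsp-16.41 and hsp-70 were DD replicates 2 and 3. Of these, DD replicate 2 was the lowest for 4 of the 5 TWK genes, and DD replicate 3 was the highest for twk-7 and twk-43. Their part in the TWK differences was not tested.

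The list holds 1.05% of all tested probe sets, and the counts that follow for other genes of excitability are few and are given as a description. Of 31 other potassium channel genes looked for (voltage-gated, calcium-activated, inward rectifier and accessory subunits) none was named, nor any of the 3 genes unc-93, sup-10 and sup-18 that act with the channel SUP-9. As only higher probe sets carry names, this gives no level for them. Of 16 genes for other cation channels and their partners, unc-79 alone was named. It encodes a partner of the sodium leak channel NALCN, whose current opposes a potassium leak at rest. By the brighter of its probe sets, unc-79 read 8.56, 8.09, 7.80 and 7.90 in DD neurons, against 7.22, 6.44 and 7.60 in all cells, a log2 difference of 1.00 ± 0.31 (SE). By the other probe set it was 1.33 ± 0.36. By either probe set the lowest DD array stood close above the highest array of all cells.

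Of 8 chloride channel genes, 2 were named, both of the CLC family of chloride channels and transporters. The gene clh-6 read 7.37, 7.76, 6.14 and 7.22 in DD neurons, against 6.04, 4.87 and 6.02 in all cells, a log2 difference of 1.48 ± 0.43 (SE). For clh-2 the values were 8.91, 8.50, 7.70 and 8.58 in DD neurons, against a mean of 7.41 ± 0.36 (SD, n = 3) and a highest value of 7.66 in all cells, a difference of 1.01 ± 0.31. In both genes DD replicate 3 was the lowest DD array and came near the highest array of all cells, whereas for twk-7 and twk-43 it was the highest.

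The named genes with the most similar profile to each TWK gene were ranked by Pearson r over the 7 arrays, among 196 other named genes. These values only describe likeness: the group difference that all listed genes share enters every one, and the median r of the 196 genes was already 0.80 to 0.86. The genes nearest to twk-7 were pqn-44 (now tent-5, r = 0.985), the active zone gene unc-10 (0.981) and the phospholipase D gene pld-1 (0.979). With each group's own mean taken out, their r with twk-7 was 0.73, 0.31 and 0.66, in that order. For the nearest genes of the other TWK genes, given below, this r was 0.75 to 0.95. All were picked as nearest on these same arrays. Nearest to twk-12 were unc-46 (0.975), which sorts the vesicular GABA transporter, F53B6.2 (0.974) and F59D12.1 (now pcdr-1, 0.974). F53B6.2, now madd-4, encodes a secreted organiser of neuromuscular synapses, and it was also the nearest to twk-30 (0.978), followed by C11E4.6 (0.977) and the anoctamin family gene anoh-2 by its RefSeq symbol (0.974).

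For twk-23 the nearest were Y64G10A.7 (0.970), F25E5.1 (0.966) and W07E11.1 (0.963). For twk-43 they were ccpp-1 (0.967), a carboxypeptidase gene that trims glutamate side chains from tubulin, T12E12.2 (now cec-6, 0.964) and T23F11.2 (0.961). No gene was among the nearest 3 of more than 1 TWK gene except F53B6.2, shared by twk-12 and twk-30.

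In the genome the 5 genes are scattered. RefSeq places twk-7 on chromosome III, twk-12 and twk-43 on V, twk-23 on X and twk-30 on I. Chromosome V holds 14 genes of the family and X holds 11, against 7 on III and 5 on I. The protein-coding neighbours of twk-7 are dnj-10 and fip-1, those of twk-12 are sqv-4 and the pharyngeal homeobox gene ceh-22, and those of twk-43 are lgc-48 and F32H5.1. The neighbours of twk-23 are obr-3 and F19D8.2, and those of twk-30 are phip-1 and F36A2.7. None of these 10 neighbours is on the list of higher probe sets, and none is a TWK gene.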

How the data were processed

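Gene expression was measured on Affymetrix arrays in 4 DD and 3 all-cell samples, grouped by their titles. The deposited log2 values are the authors' output of RMA, per the submitters' processing notes, and no source used here gives its version, software or probe set definition. The authors also deposited a list of 236 probe sets higher in DD neurons, of which 222 carry a name for 201 genes. Its identifiers and names were used, and its score, fold and p columns were not. Members and lists were chosen with earlier results of these data known.

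From the log2 values, 77 array controls were left out, and differences of group means with their SE came from limma 3.58.1 (lmFit and eBayes, R 4.3.3) fitted over 22548 probe sets without covariates, with 5 residual and 3.13 prior degrees of freedom. The fit was tested on simulated data with independent normal errors of equal SD in both groups. This checks the computation only, as the SD was larger in DD neurons for all 5 TWK genes. No p-value is given, because the list used the same contrast. The number of arrays limits the precision. Tables were made with Python 3.11.15 and pandas 2.3.3. Named genes were all TWK genes on the list, the 3 named genes nearest to each by Pearson r, members of gene lists (by count, with up to 4 examples each) and D-type markers. Where a gene had more than 1 probe set, a suffix that marks a match to several transcripts put it last, and the brightest of the rest was taken. Heat shock genes hsp-16.41 and hsp-70 and the tissue genes were named after their values were seen. All 5 TWK genes were matched to RefSeq by symbol and sequence name. Deviations of same-numbered arrays of the groups correlated at -0.01, 0.07 and 0.09 over probe sets. These values show no clear pairing by number, but they cannot exclude one, as arrays of unlike number were not compared. The alternatives were other centrings, quantile normalization, a filter on dim probe sets, group medians, controls kept, arrays left out and a replicate block.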

Additional observations from a re-analysis of the deposited data

Results flagged for a closer look

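None of the 5 TWK genes had a DD array far from the other 3 by Dixon's criterion. Among 40 probe sets of 32 genes whose values are used in the text, 4 did, where chance gives about 1 in 20. DD replicate 1 gave 7.33 for the dimmer probe set of unc-79, below the 8.27 to 8.35 of the other DD arrays. In pld-1 it was DD replicate 4, at 7.97 against 8.47 to 8.54. In unc-25 it was DD replicate 2, at 10.84 against 11.39 to 11.46. In the dimmer probe set of unc-46 it was DD replicate 3, at 7.17 against 8.08 to 8.25.

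Control probe sets of the array, which did not enter the comparison, were higher in DD neurons by a mean log2 difference of 0.357, in 75 of 77 probe sets. Centring on their median, and not on their mean, lowers the difference of every probe set by the same amount. With it the median over all tested probe sets went from 0.06 to -0.20, so the shift is not this 0.357. The part of the controls is otherwise as given with the results. Their part in the TWK differences was not tested.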

How the results depend on the processing

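Leaving out dim probe sets, keeping the array controls and averaging the probe sets of a gene cannot alter a TWK difference. Under the other alternatives that kept all 7 arrays, and the replicate block, all 5 differences stayed positive, and 29 of 30 values of the genes and their median moved by less than 1 SD between replicates. The exception was twk-7 with arrays centred on the control probe sets, at 1.27. These 30 values are not separate checks. Each centring moves all 5 genes by the same amount, and the replicate block gives the same values as leaving out DD replicate 4. With 1 array left out, the median over the genes ran between 1.81 and 2.25 and no value moved by more than 1 SD. For a single gene no larger move was possible there or with the replicate block. At these group sizes, leaving out 1 array cannot shift a group mean that far. With the replicate block, which rests on replicates 1 to 3, the differences were 1.62 for twk-7, 1.98 for twk-12, 1.84 for twk-23, 1.93 for twk-30 and 1.27 for twk-43, and the count of probe sets at 2-fold or more was 404.

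The background counts moved more. Probe sets with every DD array above every array of all cells numbered 1573, against 4123 with array medians centred, 334 with control centring and 796 with dim probe sets left out, and 2006 to 3238 with 1 array left out. Probe sets at 2-fold or more numbered 349, against 144 with control centring and 308 to 501 with 1 array left out. Centring shifts every value of an array by the same amount, and the counts move with it. Fewer probe sets or fewer arrays enter some other settings. Beyond that the cause was not tested, nor was why the arrays differ in these amounts. Signal over background is not known for any probe set.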
